A study of Mus musculus with 12 samples.

Results

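Srr, Sla2, Ncaph2, Rpgrip1, Rfxank, Dnajc19, Tti2 and Slc18a2 are 8 of the 24421 genes counted in cultured mouse cholangiocytes in which β-catenin was silenced or activated. They were chosen from the values described here. Each had at least 254 counts in every siRNA library, the first 6 were higher in every library with β-catenin silenced, and Srr, Tti2 and Slc18a2 were lower in the control plasmid group than in the control siRNA group. The silencing values and the differences between the controls are therefore given as a description, with no p-value for any of the 8. Where one of them is said to pass or not to pass the threshold there, this states its place in the fit of all genes, which the choice fixes in large part, and is no test of it. The cells were SMCCs, an immortalized line of mouse small cholangiocytes, the epithelial cells that line small bile ducts. RNA was sequenced from 12 libraries, 3 in each of 4 groups. Cells of the siCTL group received a control siRNA and cells of the si-bcatenin group an siRNA against Ctnnb1, the β-catenin gene, both with Lipofectamine RNAiMAX for 24 h. Cells of the eGFP group received a plasmid for the fluorescent protein and cells of the S45Y group a plasmid for the stable S45Y mutant of β-catenin, both with Lipofectamine 3000 for 48 h. All 4 groups are the same line, so they share whatever this line carries. The labels do not say whether the 3 libraries of a group came from separate cultures, and p-values then measure only the spread between these libraries.

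The 8 genes belong to unrelated pathways. Srr encodes serine racemase, which makes D-serine, a co-agonist of NMDA receptors, from L-serine. Sla2 encodes a Src-like adaptor that dampens antigen receptor signaling in lymphocytes. Ncaph2 encodes a subunit of the condensin complex that shapes chromosomes, and Rfxank a subunit of the RFX complex that binds the promoters of MHC class II genes. Rpgrip1 encodes a protein of the photoreceptor cilium that binds RPGR. Dnajc19 encodes a J-domain co-chaperone at the inner mitochondrial membrane, linked to the motor of the TIM23 import channel. Tti2 encodes a subunit of the TTT complex, which stabilizes large kinases such as ATM and mTOR. Slc18a2 encodes the transporter that loads monoamines into vesicles. β-Catenin, the effector of canonical Wnt signaling, acts on genes through TCF/LEF factors at their promoters and enhancers.

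On mm10 with GENCODE release M21, Srr lies on chromosome 11 from 74906359 to 74925948 on the minus strand, and Sla2 on chromosome 2 from 156872457 to 156887192 on the minus strand. Ncaph2 lies on chromosome 15 from 89355719 to 89372826 on the plus strand, and Rpgrip1 on chromosome 14 from 52110704 to 52163546 on the plus strand. Rfxank lies on chromosome 8 from 70130794 to 70139154 on the minus strand, and Tti2 on the same chromosome from 31150315 to 31164702 on the plus strand. Dnajc19 lies on chromosome 3 from 34056020 to 34081321 on the minus strand, and Slc18a2 on chromosome 19 from 59260896 to 59296012 on the plus strand. The 8 genes thus lie on 7 chromosomes. Promoters of 7 of the 8, all but Tti2, were taken from RefSeq on GRCm38.p6, and the 250 bases before each start were searched on both strands for 7 motifs. A TCF/LEF word (CTTTGAA or CTTTGAT, or else CTTTGTA or CTTTGTT) was found in 1 of the 7, Rpgrip1, against 14.8% of all 32851 promoters. The GC box GGGCGG was found in 5 of the 7, Srr, Ncaph2, Rfxank, Dnajc19 and Slc18a2, against 32.7% of all promoters. CCAAT was found in Rpgrip1, Rfxank and Dnajc19 (33.8% of all promoters) and TATAAA in Rpgrip1 and Dnajc19 (12.4%). The CRE TGACGTCA (1.55% of all), the E-box CACGTG (6.02%) and the NF-κB motif (7.25%) were found in none of the 7. A match is a string of letters and not a shown binding site. The windows of Dnajc19 (chr3:34081355-34081604, minus strand) and Slc18a2 (chr19:59260628-59260877, plus strand) are printed because these genes had the largest and the smallest difference after silencing in the fit of all siRNA libraries. Ncaph2 stood close to Dnajc19, and their order changed with single libraries left out. For Rpgrip1, the 30 bases around its TCF/LEF word are printed (chr14:52110837-52110866, plus strand), which lie inside the gene as GENCODE gives it. Capitals mark the GC boxes and the TATA word in the first 2 sequences and the TCF/LEF word, read here on its reverse strand, in the third.
Dnajc19: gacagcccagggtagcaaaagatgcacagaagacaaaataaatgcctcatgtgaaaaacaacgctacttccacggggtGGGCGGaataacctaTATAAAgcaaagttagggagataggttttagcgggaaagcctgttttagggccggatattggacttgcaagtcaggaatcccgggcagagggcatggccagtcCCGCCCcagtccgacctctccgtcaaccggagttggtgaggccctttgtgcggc
Slc18a2: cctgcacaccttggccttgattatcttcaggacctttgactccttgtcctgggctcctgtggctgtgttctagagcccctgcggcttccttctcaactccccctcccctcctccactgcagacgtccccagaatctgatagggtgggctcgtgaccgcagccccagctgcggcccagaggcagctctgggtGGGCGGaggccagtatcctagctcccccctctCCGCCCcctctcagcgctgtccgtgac
Rpgrip1: agaaacagagcTACAAAGagttaacagcta

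Depth differed between the transfections. Total counts per library were 221767 to 326686 in siCTL and 295677 to 313074 in si-bcatenin, and 113481 to 122304 in eGFP and 91468 to 117419 in S45Y. Rn45s, the ribosomal RNA precursor, took 3.64% to 5.49% of the counts in siCTL, 1.61% to 2.44% in si-bcatenin, 10.03% to 15.4% in eGFP and 10.2% to 15.03% in S45Y. Ctnnb1 had 13, 38 and 28 counts in siCTL and 0, 11 and 3 in si-bcatenin, a log2 fold change of -2.54 (SE 0.55, Benjamini-Hochberg adjusted p = 0.00491 by the quasi-likelihood test of edgeR). The adjusted p by edgeR was 0.101 without siCTL replicate 2 and 0.0750 without si-bcatenin replicate 3, and the log2 fold change was -4.08 without si-bcatenin replicate 2. Ctnnb1 shares 759 bases of exon (14.6%) with Ulk4 on the opposite strand, whose log2 fold change was -0.76 (adjusted p = 0.516 by edgeR), and the strand of the counting is not stated. In the plasmid libraries Ctnnb1 had counts of 6, 11 and 10 (eGFP) and 11, 4 and 18 (S45Y), groups that overlapped, with a log2 fold change of 0.51 (95% CI -0.58 to 1.61, adjusted p = 0.989 by edgeR). A higher Ctnnb1 level in S45Y was thus not detected. Counts were low, and the sources do not state whether reads from the plasmid would be counted as Ctnnb1, which was not tested. Of 10 cholangiocyte markers, Epcam and Cftr had no count, while Krt18, Spp1, Krt8 and Krt19 led with 1150, 609, 589 and 365 counts over the 12 libraries. The summed level of the 10 in counts scaled to library size (CPM) was 955 to 1307 in siCTL and 887 to 962 in si-bcatenin, and 1387 to 1984 in eGFP and 1615 to 2059 in S45Y. It was thus higher in the plasmid groups, where most of the 8 genes were lower, and its part in those differences was not tested.

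The 8 genes were among the better counted genes of a shallow dataset. Together they took 2.63%, 2.89% and 2.63% of the counts in the siCTL libraries and 3.43%, 3.62% and 3.62% in the si-bcatenin libraries, with no overlap between the groups. In the plasmid libraries they took 1.48%, 1.42% and 1.35% in eGFP and 1.43%, 1.63% and 1.35% in S45Y, where the groups overlapped. Counts per gene ran from 254, for Dnajc19 in siCTL replicate 1, to 2753, for Srr in si-bcatenin replicate 3, in the siRNA libraries. In the plasmid libraries they ran from 70, for Rfxank in S45Y replicate 1, to 426, for Sla2 in eGFP replicate 1. The coefficient of variation of the level between the 3 libraries of a group had a median over the 8 genes of 4.04% in siCTL, 3.55% in si-bcatenin, 8.11% in eGFP and 12.7% in S45Y, with the highest value, 23.3%, for Dnajc19 in eGFP. Counting error alone gives 1.94% to 5.48% in the siRNA groups and 5.15% to 9.82% in the plasmid groups, so the plasmid libraries were the less precise. These are bulk samples, in which fewer cells that express a gene and less RNA per cell cannot be told apart.

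Compared per kilobase of exon, the genes covered a wide range. In siCTL, Sla2 at 1421 ± 166 and Srr at 1405 ± 105 CPM per kilobase were highest and did not differ beyond their spread (SD, n = 3). They were followed by Tti2 at 899 ± 38.2, Rfxank at 549 ± 44.1, Ncaph2 at 491 ± 8.04, Slc18a2 at 473 ± 11.2, Dnajc19 at 286 ± 5.63 and Rpgrip1 at 201 ± 7.69 CPM per kilobase, and each of these neighbors differed beyond their spread. For Ncaph2 and Slc18a2 that spread, 1.64% and 2.37% of the mean, was below counting error alone, 4.10% and 3.75%. The order of this pair in siCTL is therefore not certain. The order was the same in si-bcatenin, where Sla2 and Srr differed beyond their spread and Rfxank and Ncaph2 did not. In eGFP, Sla2 (1035 CPM per kilobase) stood above Srr (601), and Dnajc19 (320) stood above Rfxank (286), Ncaph2 (248) and Slc18a2 (171), although Tti2 and Dnajc19, Dnajc19 and Rfxank, and Rfxank and Ncaph2 did not differ beyond their spread. Rpgrip1 was lowest per kilobase in all 4 groups, at 132 CPM per kilobase in eGFP and 154 in S45Y. The length joins the exons of all annotated transcripts, and that of Rpgrip1, 12152 bases, was the longest of the 8. In CPM, Rpgrip1 in siCTL (2444) stood above Rfxank (2179), Ncaph2 (2062) and Dnajc19 (1153), and below the others. Several of these genes are best known from other cell types, whose markers were at low levels or at 0. Of 6 T-cell markers 5 had no count, and the summed level of the 6 was at most 10.2 CPM in any library. Other genes known from T cells were well counted, such as Cd247 with 2812 counts over the 12 libraries and Foxp3, named after its values were seen, with at least 258 counts in every siRNA library. Both share exon sequence with a gene on the opposite strand. Of 6 markers of monoamine neurons 4 had no count (Th, Dbh, Tph2 and Slc6a3), and Ddc and Slc6a4 had 2 counts each over all libraries. Of 6 photoreceptor markers Sag and Crx had no count, and the sum was 17.1 to 48.6 CPM over the 12 libraries. Of 6 markers of antigen-presenting cells H2-Aa, H2-Ab1 and Itgax had no count, and the sum was 42.8 to 83.3 CPM in siCTL, 91.8 to 159 in si-bcatenin, 46.4 to 58.3 in eGFP and 30.5 to 68.3 in S45Y. That sum moved with silencing, and its part in the Rfxank values was not tested.

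**Figure D1:**
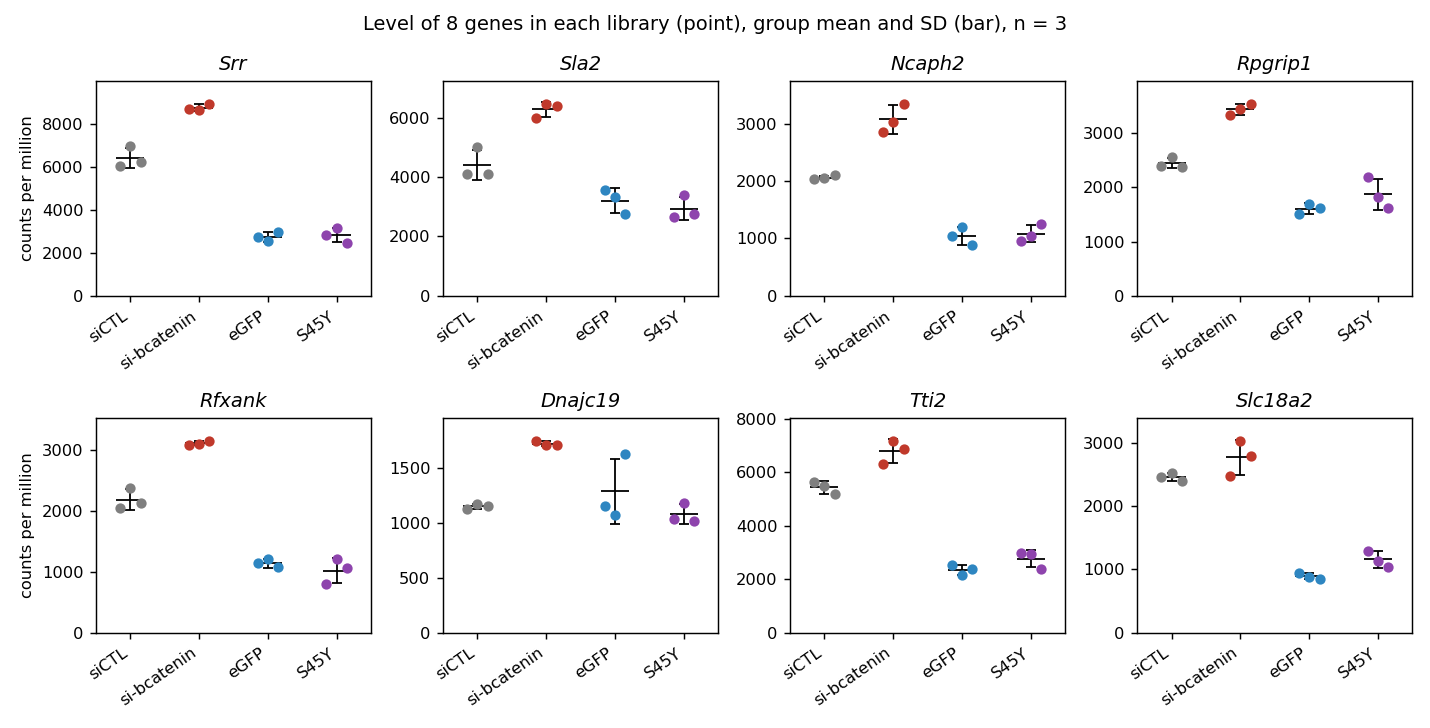
Level of each of the 8 genes in CPM (vertical axis, from 0) in the 12 libraries, by group. Points are libraries, and bars give the group mean and SD (n = 3). The 3 si-bcatenin points lie above the 3 siCTL points for every gene but Slc18a2, and both plasmid groups lie below siCTL for every gene but Dnajc19.

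After silencing of β-catenin, 7 of the 8 genes were higher in every si-bcatenin library than in any siCTL library, by 1.22 to 1.46 times, while Slc18a2 overlapped between the groups. Levels are in CPM scaled by edgeR's TMM factors over the 12 libraries, and log2 fold changes come from edgeR's fit of the 6 siRNA libraries. Of the 3484 genes tested, 1.55% passed an adjusted p below 0.05 and 0.804% passed and were higher, against 7 of the 8 here, a count that the choice of the genes fixes in large part. Over all genes, the 54 calls and the 28 that were higher became 31 and 16 without si-bcatenin replicate 2, and 18 were higher without si-bcatenin replicate 1 or 3. Of all genes tested, 10% were higher without overlap.

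Dnajc19, the mitochondrial co-chaperone, had the largest difference in the fit of all siRNA libraries, with 1128, 1173 and 1159 CPM in siCTL and 1754, 1715 and 1713 in si-bcatenin, a log2 fold change of 0.55 ± 0.10 (SE). This rank was not firm. Without si-bcatenin replicate 1, Ncaph2 had 0.60 and Dnajc19 0.54, and without siCTL replicate 2, Sla2 had 0.58 and Dnajc19 0.57. For Dnajc19 the libraries of each group lay close together, with means of 1153 ± 22.7 and 1727 ± 23.0 CPM (SD, n = 3). These SDs, 1.97% and 1.33% of the mean, were below counting error alone, 5.48% and 4.36%, so they understate the uncertainty. Ncaph2, the condensin subunit, had 2030.4, 2057 and 2097 CPM in siCTL and 2855, 3026 and 3342 in si-bcatenin (0.54 ± 0.09). Its siCTL libraries agreed to within 33.8 CPM (SD), again closer than counting error alone, and the spread in si-bcatenin was 247 CPM, mostly from replicate 3. Rfxank, the RFX subunit, had 2039, 2375 and 2124 CPM in siCTL and 3079, 3097 and 3147 in si-bcatenin (0.48 ± 0.09), with siCTL replicate 2 nearest to the silenced libraries.

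Sla2, the lymphocyte adaptor, had 4096, 4998 and 4116 CPM in siCTL and 5989, 6456 and 6399 in si-bcatenin (0.48 ± 0.08). It had the widest spread of the 8 in siCTL, where replicate 2 stood above the other two. Rpgrip1, the ciliary protein, had 2399, 2551 and 2381 CPM in siCTL and 3327, 3449.6 and 3536 in si-bcatenin (0.46 ± 0.08). Srr, serine racemase, had 6056, 6950.4 and 6213 CPM in siCTL and 8701, 8624 and 8915 in si-bcatenin (0.42 ± 0.07), and siCTL replicate 2 was again the highest control. For these 3 genes, too, no si-bcatenin library reached down to a siCTL library.

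Tti2, of the TTT complex, had 5647, 5471 and 5189 CPM in siCTL and 6298, 7181 and 6878 in si-bcatenin, a smaller difference (0.29 ± 0.07). It was not among the genes past the threshold without siCTL replicate 2 or 3 or si-bcatenin replicate 2 or 3, with libraries scaled by their totals alone, with only the genes that had at least 50 counts in 3 libraries, or in a joint fit of all 12 libraries. Slc18a2, the monoamine transporter, had 2470.3, 2527 and 2410.3 CPM in siCTL and 2488, 3042 and 2801 in si-bcatenin (0.14 ± 0.09). The value of Slc18a2 was 0.077 without si-bcatenin replicate 2 and 0.22 without si-bcatenin replicate 1. Its highest siCTL library lay above its lowest si-bcatenin library, so the description of the set as rising after silencing does not hold for it library by library. The median log2 fold change of the 8 was 0.47, and that of all genes tested was -0.00. It was 0.47 with Rn45s left out and 0.44 with libraries scaled by their totals alone.

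The rule rests on depth as well as on direction. A count of at least 254 in every siRNA library, the lowest count of any of the 8, was reached by 143 genes. Among these, 17 passed an adjusted p below 0.05 and were higher (11.9%), 7 of them from the 8 described here, and 5 passed and were lower. Of the 143, 108 (75.5%) had a positive log2 fold change and the median was 0.11, against 49.7% positive among all genes tested. By log2 fold change, Dnajc19 ranked 2 and Ncaph2 3 of the 143, behind Cand2 (0.58), and Sla2 5, Rfxank 6, Rpgrip1 8 and Srr 9, with Spag17 (0.51) at 4 and 9530027J09Rik (0.47) at 7. Rmi1 (0.39) followed Srr at 10. Tti2 ranked 26, and Slc18a2 ranked 64, between 4930473A02Rik (0.14) and Ccdc167 (0.13), neither of which passed. Just under the depth of the set, 2310068J16Rik had a log2 fold change of 0.61 with a lowest count of 221, and Tmem88 0.47 with 197.

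**Figure D2:**
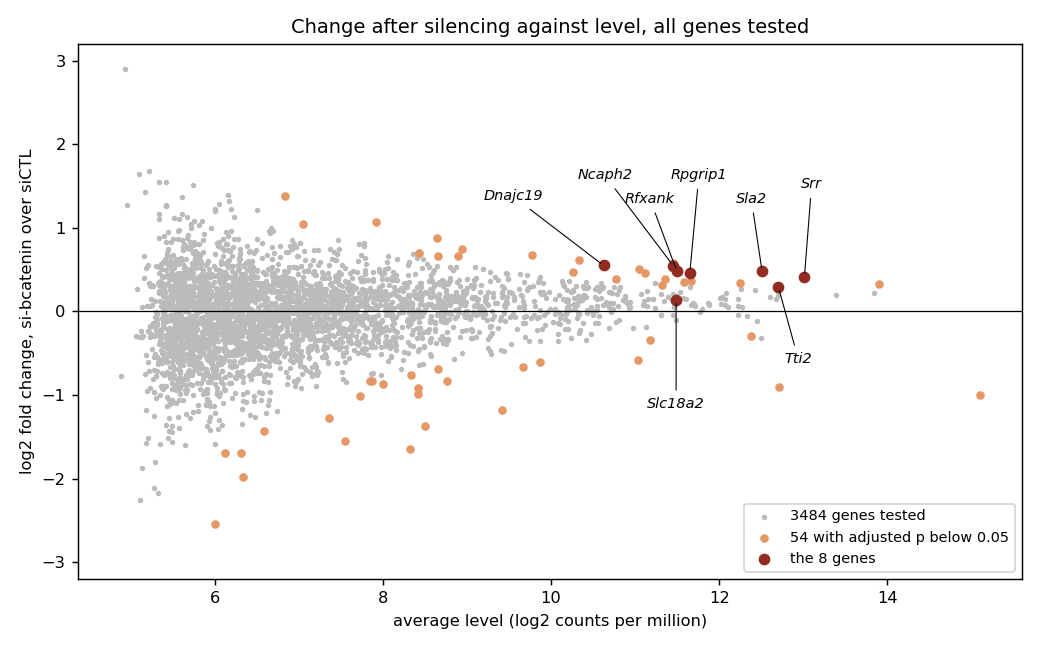
Log2 fold change of si-bcatenin over siCTL (vertical axis) against the average level in log2 CPM (horizontal axis) for the 3484 genes tested. Grey points are genes tested, orange points the 54 with an adjusted p below 0.05, and named dark red points the 8 genes, which lie between 0.14 and 0.55 toward the well counted end.

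Expression of the stable S45Y mutant was the comparison that the rule did not use, although Srr, Tti2 and Slc18a2 were chosen as low in eGFP, its reference group. That choice favors higher values in S45Y over eGFP, so these 3 genes are described here with no p-value and the other 5 are tested. None of the 5 passed an adjusted p below 0.05 in edgeR's quasi-likelihood test, and none of the 1819 genes tested did (0% called). At an unadjusted p below 0.05, 107 of all genes passed (5.88%), and none of the 5 genes did. DESeq2 also called no gene, with 166 of the 12569 genes it tested, low counts included, at an unadjusted p below 0.05. Slc18a2 had 950.1, 876 and 854 CPM in eGFP and 1301, 1138 and 1042 in S45Y, with all S45Y libraries above all eGFP libraries. Of all genes tested, 5.06% were higher without overlap. Its log2 fold change was 0.41 ± 0.17 (SE), in the direction that the choice favors.

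The other 7 genes overlapped between S45Y and eGFP. Tti2 had 2517, 2149 and 2395 CPM in eGFP and 2986, 2925 and 2392 in S45Y, a log2 fold change of 0.27 ± 0.14 (SE), again described only. Rpgrip1 had 1500.2, 1695 and 1625 CPM in eGFP and 2183, 1818 and 1615 in S45Y, a log2 fold change of 0.25 (95% CI -0.05 to 0.56, adjusted p = 0.931 by edgeR). Its two-sided exact permutation test of log2 CPM gave p = 0.3, where 0.1 is the smallest that 3 libraries against 3 allow. For Tti2 and Rpgrip1 the S45Y group had the higher mean, with its highest libraries above eGFP and its lowest within it. Dnajc19 had 1158, 1079 and 1634 CPM in eGFP and 1041, 1188 and 1017 in S45Y, a log2 fold change of -0.21 (95% CI -0.55 to 0.13, adjusted p = 0.977 by edgeR, exact permutation p = 0.3). Here 1 library, eGFP replicate 3, lay well above all others of both groups, and without it the log2 fold change was -0.042. For Rpgrip1 it was 0.11 without S45Y replicate 1, its highest library.

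The remaining 4 genes had log2 fold changes between -0.12 and 0.10, and the 3 tested among them, Sla2, Ncaph2 and Rfxank, an adjusted p of 0.989 each in edgeR. Srr had 2717, 2530.1 and 2980.3 CPM in eGFP and 2850.2, 3139 and 2469 in S45Y, a log2 fold change of 0.08 ± 0.14 (SE), described only. Sla2 had 3550.5, 3333 and 2739 CPM in eGFP and 2669, 3383 and 2742 in S45Y, with a 95% CI of the log2 fold change from -0.37 to 0.18. For both genes the groups overlapped. Ncaph2 had 1042, 1200.2 and 882 CPM in eGFP and 961, 1046 and 1247 in S45Y, with a CI from -0.24 to 0.45. Rfxank had 1133, 1208 and 1068 CPM in eGFP and 792, 1199 and 1051 in S45Y, with a CI from -0.47 to 0.22 and its lowest value, S45Y replicate 1, resting on 70 counts. At these depths a difference within such intervals was not detectable. The exact permutation p of Sla2, Ncaph2 and Rfxank was 0.4 to 0.7. Of the 5 genes that were not chosen as low in eGFP, 2 had a positive log2 fold change, where 52.6% of all genes tested did, and their median was -0.09, against 0.02 over all genes tested. With Srr, Tti2 and Slc18a2, all positive in the direction that the choice favors, the median of the 8 was 0.09. It was 0.038 to 0.10 with each library left out.

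**Figure D3:**
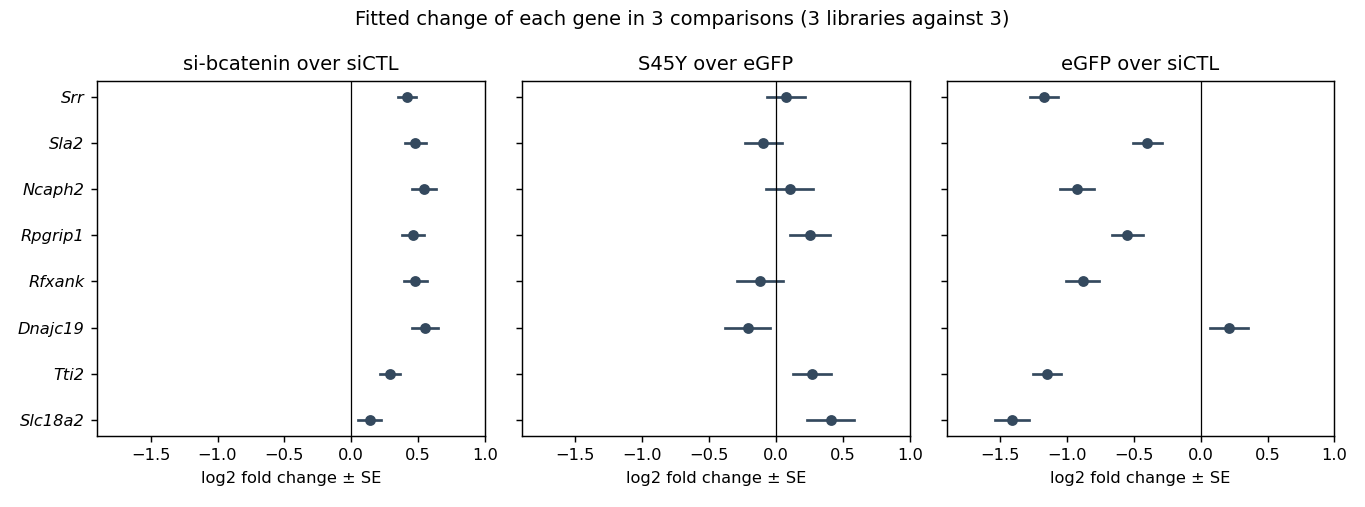
Log2 fold change with its SE (horizontal axis) of each of the 8 genes in the 3 comparisons, si-bcatenin over siCTL, S45Y over eGFP and eGFP over siCTL. The values are 0.14 to 0.55 in the first, -0.21 to 0.41 around zero in the second, and -1.41 to -0.40 in the third for all genes but Dnajc19.

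The largest differences of these genes lay between the transfections. For Sla2 and Dnajc19, though, the difference between the controls was smaller in size than that in silencing (-0.40 against 0.48, and 0.21 against 0.55). In eGFP, 7 of the 8 genes were lower than in siCTL in every library, by 1.32 to 2.65 times, and Dnajc19 overlapped. Of the 2459 genes tested, 16.9% passed an adjusted p below 0.05 and 8.95% passed and were lower, against 7 of the 8 here, which the choice of genes fixes in part. Among all genes tested, 18.6% were lower without overlap. Reagent, nucleic acid, hours of transfection and depth all differed between these groups and cannot be told apart. The si-bcatenin and eGFP groups were both set against the same siCTL libraries, so the values of the first and the third comparison are not independent of each other.

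Slc18a2 differed most between the controls, with 2470.3, 2527 and 2410.3 CPM in siCTL and 950.1, 876 and 854 in eGFP (-1.41 ± 0.13 on the log2 scale). Srr had a mean of 6406 ± 478 CPM in siCTL and 2742 ± 226 in eGFP (-1.17 ± 0.10), and Tti2 5436 ± 231 and 2354 ± 188 CPM (-1.15 ± 0.11). These 3 genes, with levels in siCTL of 2.22 to 2.65 times those in eGFP, are those that were chosen for this difference. Ncaph2 had 2062 ± 33.8 CPM in siCTL and 1041 ± 159 in eGFP (-0.92 ± 0.13), and Rfxank 2179 ± 175 and 1136 ± 70.3 CPM (-0.88 ± 0.12). Rpgrip1 had 2444 ± 93.5 CPM in siCTL and 1607 ± 98.6 in eGFP (-0.55 ± 0.12). Sla2 had 4403 ± 515 CPM in siCTL and 3207 ± 420.1 in eGFP (-0.40 ± 0.11), a difference that no longer passed without siCTL replicate 2, whose level was the highest, or with only the genes that had at least 50 counts in 3 libraries. Dnajc19 had 1153 ± 22.7 CPM in siCTL and 1290.4 ± 300.3 in eGFP (0.21 ± 0.14), and -0.039 without eGFP replicate 3. With only the genes that had at least 50 counts in 3 libraries, Dnajc19 had a value of 0.37 and passed as higher in eGFP. The median log2 fold change of the 8 genes was -0.90, against 0.01 over all genes tested. With Rn45s left out, whose share of the counts was higher in both plasmid groups, it was -0.92.

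The treated groups also differed, again as a description. S45Y lay below si-bcatenin in every library for all 8 genes, Dnajc19 included, which overlapped between the controls, with log2 differences of -1.58 for Srr, -1.55 for Rfxank, -1.44 for Ncaph2, -1.24 for Tti2 and -1.21 for Slc18a2. Sla2 (-1.04), Rpgrip1 (-0.83) and Dnajc19 (-0.62) had the smaller ones. Of the 2702 genes compared, 20.7% were lower without overlap. The median of the 8 was -1.23, against 0.02 over all of these genes.

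Over the 12 libraries, profiles were compared as the mean absolute difference of log2 CPM, each gene centered on its own mean, among 2996 genes. The gene most like Tti2 was Slc18a2 (0.0932), and Tti2 was the gene most like both Slc18a2 and Srr (0.128). These 3 genes were chosen on the same 12 libraries for the same difference between the controls. The gene most like Ncaph2 was Particl (0.111), and Rfxank ranked 2 (0.126). The gene most like Rfxank was Gm5088 (0.119), with Ncaph2 at rank 3. Sla2 was nearest to Wdr38 (0.0891) and Rpgrip1 to Tmem55b (0.0869), while Sla2 and Rpgrip1 differed from each other by 0.137. Dnajc19 was nearest to 4930512B01Rik (0.113) and stood apart from the other 7, of which the nearest, Sla2, was at rank 218 (0.256) and the farthest, Srr, at 0.580. For comparison, the median difference of each of the 8 genes to all others was 0.473 to 0.757. The points share the depth and the group differences of the libraries.

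All 8 genes share exon sequence with a gene on the opposite strand. The text of the study does not state whether reads were counted by strand, or by which strand. Neither reads in the shared bases nor whole rows can thus be assigned with certainty. A row may hold reads of the opposite strand, which was not tested. Every counted partner had fewer counts than its gene over the 12 libraries, such as 56 for Rab5if and 11606 for Sla2, or 1180 for Sco2 and 5294 for Ncaph2. Such overlap was not particular to the 8 genes. Of the 143 genes with at least 254 counts in every siRNA library, 135 were matched to GENCODE and 121 of these (89.6%) had such an overlap, against 5637 of 23376 (24.1%) of all matched genes. The overlap was 1341 bases of Rfxank with Nr2c2ap (33.8% of the exonic length of Rfxank), 1240 bases of Srr with Tsr1 (27.2%), 731 bases of Sla2 with Rab5if, listed in the table as 1110008F13Rik (23.6%), 882 bases of Tti2 with Mak16 (14.6%) and 1057 bases of Rpgrip1 with Supt16 (8.70%). Ncaph2 shared 829 bases with Sco2 (19.7%) and 535 with Tymp (12.7%). Smaller overlaps joined Dnajc19 with Fxr1 (178 bases), Srr with Smg6 (126 bases) and Slc18a2 with the antisense gene Gm29261 (111 bases), the last not analysed here.

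Of these partners 9 were in the table, and 7 passed the filter on low counts in silencing and between the controls. In silencing none of the 7 passed, where 1.55% of all genes did. Tsr1, which functions in ribosome assembly, had 102, 156 and 120 counts in siCTL and 95, 110 and 117 in si-bcatenin, a log2 fold change of -0.34 (SE 0.16, adjusted p = 0.379 by edgeR). Scaled to depth it was lower in every si-bcatenin library, opposite to Srr, and the exact permutation p was 0.1. Sco2 (0.01), Nr2c2ap (0.03), Fxr1 (-0.01), Mak16 (0.08), Supt16 (-0.14) and Tymp (0.32) had adjusted p-values of 0.787 to 0.998 in edgeR. Between the controls 1 of the 7 passed, where 16.9% of all genes did. Tsr1 was higher in eGFP by 0.67 on the log2 scale (SE 0.18, adjusted p = 0.00522 by edgeR), with 80, 77 and 77 counts in libraries of lower depth, while Srr was lower there. Mak16 (-0.55), Nr2c2ap (-0.55) and Sco2 (-0.44) had negative values and Fxr1 (0.48), Supt16 (0.30) and Tymp (0.25) positive ones, none past the threshold. The ratio of Srr to Tsr1, both in CPM per kilobase, was 12.3 in siCTL, 20.9 in si-bcatenin, 3.45 in eGFP and 4.11 in S45Y. For Ncaph2 over Sco2 it was 1.20, 1.73, 0.849 and 0.835 in the same order, and for Tti2 over Mak16 it was 5.42, 6.32, 3.62 and 3.98. Every partner with such a ratio was below its gene per kilobase in the siRNA groups. Slc18a2 has another gene close to its end, Pdzd8 on the opposite strand at a distance of 1165 bases, which was looked up after the values were seen. Pdzd8 had 180 counts in all and a log2 fold change of 0.30 in silencing (adjusted p = 0.803 by edgeR).

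**Figure D4:**
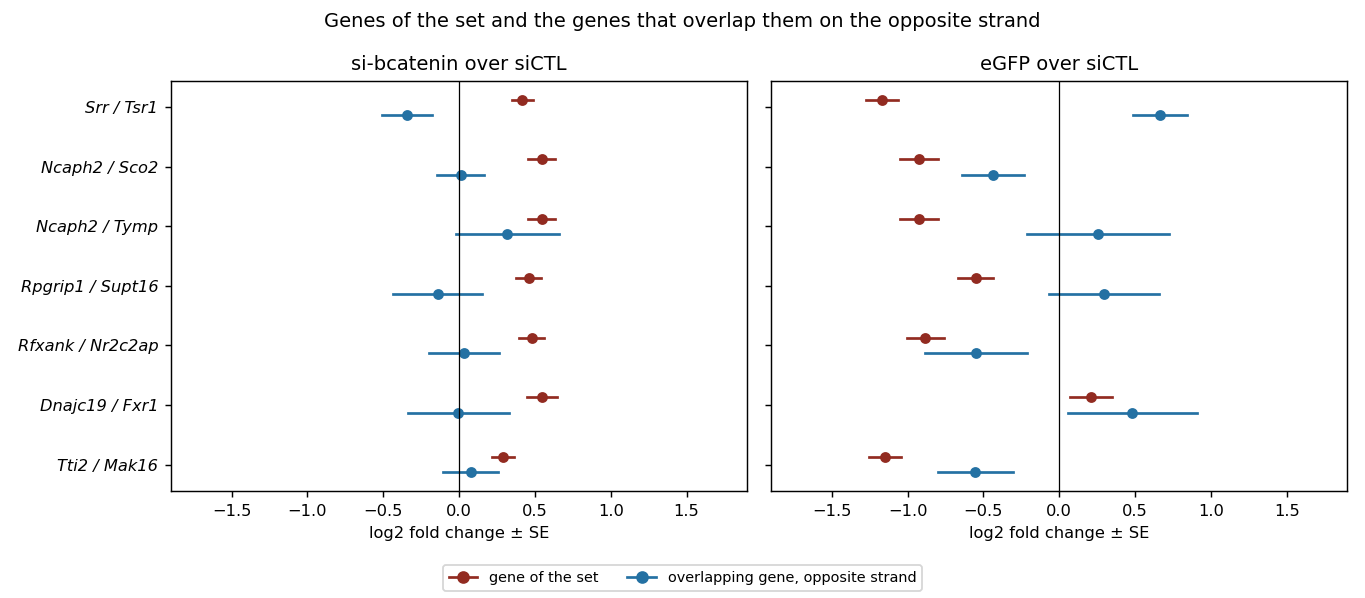
Log2 fold change with its SE (horizontal axis) of genes of the set (dark red) and of the genes that overlap them on the opposite strand (blue), for silencing and between the controls. In silencing the partners lie between -0.34 and 0.32, and Tsr1 lies opposite to Srr in both panels.

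Other genes of the same pathways were read from 8 lists with 87 genes beside the 8. Most had too few counts, and 20 could be tested in silencing, 12 in activation and 14 between the controls. None of the 20 passed an adjusted p below 0.05 in silencing, where 1.55% of all genes did, and none of the 12 in activation, where 0% did. Between the controls 2 of the 14 passed (14.3%), where 16.9% of all genes did. Of these 1 was higher in eGFP, Ncapd2 of condensin (1.09, SE 0.33, adjusted p = 0.0148 by edgeR), and 1 lower, Cd247, the T-cell receptor zeta chain (-0.77, SE 0.14, adjusted p = 5.49e-05 by edgeR). Cd247 shares 3007 bases of exon with Pou2f1, and the same limit on strand holds for it.

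In silencing, the condensin genes tested other than Ncaph2 had mixed signs. Ncaph, Ncapd3 and Ncapg2, with 39, 58 and 62 counts over the 12 libraries, could not be tested, so the list was covered only in part. Ncapd2 had a log2 fold change of 0.49, Ncapg of 0.09, Smc4 of -0.25 and Smc2 of -0.57, and their median without Ncaph2 was -0.08. Of the mitochondrial import list 6 others were tested, 3 with positive values, Timm44 (0.85), Romo1 (0.51) and Hspa9, the chaperone of the motor (0.37), and 3 with negative ones, Grpel1 (-0.25), Timm23 (-0.45) and Pam16 (-0.54). Their median without Dnajc19 was 0.06. Of the TTT list 4 others were tested, Ruvbl2 (0.55), Pih1d1 (0.46), Atm (0.45) and Trrap (-0.52), with a median of 0.45 without Tti2. Of the serine list Shmt1 (0.01) and Psph (-0.05) were tested. The lists of MHC class II, ciliary and T-cell genes each had 1 other gene tested, Nfyb (-1.42), Cep290 (0.27) and Cd247 (-0.27). Of the 14 monoamine genes 7 had no count in any library, as had 5 of the 13 MHC class II genes and 5 of the 12 T-cell genes.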

How the data were processed

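Counts per gene of 12 RNA-seq libraries of SMCCs were used. Per the labels and the study's methods, the authors trimmed reads with Trimmomatic 0.38, aligned them to mm10 with HISAT2 2.1.0 and counted them per gene with HTSeq 0.11.2. The deposited values are whole-number counts without normalization, with replicates kept apart. The gene annotation and the strand setting of the counting are not given in the sources used here. Gene positions, exonic lengths and overlaps came from GENCODE release M21, and promoters from RefSeq on GRCm38.p6.

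Libraries were grouped by their labels. Low counts were removed by filterByExpr (at least 10 counts, and 15 in total) of edgeR 4.0.16 under R 4.3.3. TMM factors set the library sizes. Each gene then went through the quasi-likelihood test, was adjusted by Benjamini-Hochberg, and was called at an adjusted p below 0.05. The 8 genes passed the filter in all 3 comparisons. Two-sided exact permutation tests used log2 CPM with a prior count of 2. The fits were tested on simulated counts with known changes. The 8 genes and all lists were chosen with earlier results of these data known. Also named are Ctnnb1, all opposite-strand partners, the listed pathway genes that passed a test and up to 2 of each list with the most counts, the gene with the most similar profile, the genes next in rank, and markers with the most counts. Other pathway genes that could be tested were named after their values were seen. The alternatives were DESeq2 1.42.0, other scaling and filters, Rn45s left out, a joint fit of the 12 libraries, a block for the replicate number, and single libraries left out. Precision is set by the totals of 91468 to 326686 counts.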

Additional observations from a re-analysis of the deposited data

How the results depend on the processing

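All 8 genes kept a positive value in silencing under every alternative, and the median of the 8 stayed between 0.40 and 0.52. It was 0.43 to 0.52 with each library left out. Single values ranged from 0.48 to 0.58 for Dnajc19, 0.34 to 0.48 for Srr, 0.22 to 0.34 for Tti2 and 0.07 to 0.22 for Slc18a2. The count of genes called in silencing, 54, was 31 to 49 with each library left out, and lowest without si-bcatenin replicate 2 (31), si-bcatenin replicate 3 (32) and siCTL replicate 1 (34). Activation gave 0 calls in every alternative. Without single libraries the uncalled activation values crossed zero for Ncaph2 (-0.049 to 0.20), Rfxank (-0.26 to 0.00078) and Srr (-0.018 to 0.13). Between the controls the 415 calls became 257 with at least 50 counts in 3 libraries, a filter that tests fewer genes, and were 312 to 383 with each library left out. The median of the 8 there was -0.74 under that filter, -1.19 with no filter, -1.02 by DESeq2 and -1.03 to -0.88 with each library left out. DESeq2 moved the median of all genes to 0.22 and the unfiltered fit to -0.13. The uncalled value of Dnajc19 was -0.073 with no filter and -0.039 to 0.28 with each library left out. The cause of these shifts was not tested. No pairing by replicate number was seen, with correlations of deviations between same-numbered libraries of -0.046 to 0.034 over 2996 genes. Counting error in low counts draws such correlations toward zero, so they cannot exclude a pairing. The fit with the replicate number as a block gave 64, 0 and 373 calls in silencing, activation and between the controls. It changed no call of the 8 genes. Depth limits the plasmid groups, where single genes rest on 70 to 426 counts.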
